A study of Mus musculus with 19 samples.

Results

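Genes of splenic and tissue macrophages were read in RNA of blood leukocytes that DBA/2 and B6 mice gave at 5 times after CAWS administration. The group holds 10 genes, which are Marco, Vsig4, Timd4, Axl, Mertk, Vcam1, Cd5l, Apoe, Fcna and Spic, out of 28478 named genes on the array. The genes were chosen by name, and every non-control probe that carries 1 of these names was taken, 13 of 41174 probes in all. Of the 10 genes, 6 could be tested, and the other 4 stayed at the level of the array background in nearly every sample.

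Macrophages that reside in the spleen and the liver clear microbes, worn red cells and dying cells from the blood. They do so with scavenger receptors such as MARCO, with the complement receptor CRIg (Vsig4), and with receptors for dying cells, among them Tim4 (Timd4), which binds phosphatidylserine itself, and the tyrosine kinases Axl and MerTK, which bind it through Gas6 and protein S. They also release proteins into the plasma, including CD5L (an inhibitor of macrophage apoptosis), apolipoprotein E and ficolin-A (Fcna), a lectin that starts the lectin pathway of complement. Spi-C (Spic) is a transcription factor of the Ets family that red pulp macrophages of the spleen depend on, and VCAM-1 is an adhesion molecule that binds integrins of leukocytes. Kupffer cells, the macrophages of the liver, express many of the same genes, and hepatocytes are a main source of apolipoprotein E.

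The mice were male DBA/2 or B6 mice, and all of them had received CAWS, a water-soluble fraction of Candida albicans, intraperitoneally on consecutive days. The groups are DBA/2 and B6 mice at 0 w (right after the last injection), 2 w, 4 w, then 8 w and finally 9 w, so that the series used here holds no mice without CAWS. There are 2 RNA samples in each group except B6 mice at 2 w and at 9 w, which have 1. The sample B6 0 w replicate 2 was run on 2 arrays and entered as their log2 mean, which gives 18 samples on 19 arrays. By the study's methods each array held RNA of an individual mouse, and the labels call most replicates biological. The label of DBA/2 2 w replicate 2, however, reads technical replicate 2. That of the second array of B6 0 w replicate 2 reads technical replicate 1. The titles give technical replicates 1 and 2 to the 2 arrays of B6 0 w replicate 2, so the labels stand 1 sample later than the titles. The sample titles were followed for both. If the label holds, the DBA/2 samples at 2 w come from 1 mouse. Age is given only as a range for the whole study. RNA was taken from leukocytes caught on a filter from whole blood, and 6 of 6 marker genes of B cells were well above background on all arrays of every group. The arrays lay on 6 slides and were scanned on 2 days, 1 for each replicate number.

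Signals are given below as scaled signals. These are the processed intensities of the array software after the 75th percentile of each array has been set to 1 common value, on the linear scale, and they are comparable between samples of 1 probe but not between probes. From 33.9% to 51.4% of the 43379 spots of an array were well above background by the call of the software. DBA/2 9 w replicate 2 stood apart in its 1187 spots marked as outliers, against 64 to 180 on the other arrays. Changes are differences of normalized log2 signals with their standard errors (SE), and a probe was called changed at a Benjamini-Hochberg adjusted p under 0.05 over all tested probes. The few arrays per group limit the precision, and where B6 mice have a single sample it was assumed to vary as the other samples do. In RNA of a mixed population, more cells of a type and more RNA in each cell cannot be told apart.

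The sequences before the transcription start are shown for 3 of the 4 genes that rose in DBA/2 mice and fell in B6 mice at 4 w, Marco, Cd5l and Fcna. Apoe, the other such gene, has several windows and is not shown. Spic, which did not change by the test at that time in either strain, is shown beside them. Each is the 250 bases upstream of the start, read 5′ to 3′ on the strand of the gene, from RefSeq on GRCm38.p6, in which 9 of the 10 genes were matched. Capitals mark GAGGAA on either strand, the core of the purine-rich sequence bound by PU.1 and its relatives, to which the Spi-C protein belongs.
Marco, chr1:120505025-120505274, minus strand: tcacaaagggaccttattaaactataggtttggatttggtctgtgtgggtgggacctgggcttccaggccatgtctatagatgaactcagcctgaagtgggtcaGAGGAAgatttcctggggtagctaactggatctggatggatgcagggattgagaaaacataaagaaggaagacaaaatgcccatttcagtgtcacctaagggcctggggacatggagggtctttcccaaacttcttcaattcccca
Cd5l, chr3:87357631-87357880, plus strand: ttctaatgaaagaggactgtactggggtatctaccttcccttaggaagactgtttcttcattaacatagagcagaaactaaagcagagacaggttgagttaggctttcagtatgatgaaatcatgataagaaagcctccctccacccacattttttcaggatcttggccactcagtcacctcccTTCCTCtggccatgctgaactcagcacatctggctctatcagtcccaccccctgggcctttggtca
Fcna, chr2:25627975-25628224, minus strand: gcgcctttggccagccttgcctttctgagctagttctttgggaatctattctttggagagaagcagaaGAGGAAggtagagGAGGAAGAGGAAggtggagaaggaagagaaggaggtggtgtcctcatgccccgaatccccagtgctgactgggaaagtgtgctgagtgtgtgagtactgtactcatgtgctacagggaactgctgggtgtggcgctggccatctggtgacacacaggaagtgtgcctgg
Spic, chr10:88683024-88683273, minus strand: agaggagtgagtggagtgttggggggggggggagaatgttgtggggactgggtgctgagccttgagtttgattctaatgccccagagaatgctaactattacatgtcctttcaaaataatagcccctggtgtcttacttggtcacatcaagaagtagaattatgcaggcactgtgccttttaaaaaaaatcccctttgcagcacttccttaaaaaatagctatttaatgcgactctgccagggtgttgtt

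GAGGAA occurred in 23.3% of 32851 promoter windows of the same length. Fcna held 3 copies, and Marco and Cd5l held 1 each, 146 and 66 bases before the start. Of the other genes, Axl held 1, Vsig4 held 2 and Apoe held 1 in 2 of its 3 windows. Spic, Timd4 and Mertk held none. TGCTGA, the core of the element bound by Maf proteins, was found in 16.1% of all windows and in those of Cd5l, Fcna, Timd4 and Spic. The site TTCNNNGAA, to which Stat proteins bind (7.02% of all windows), and the AP-1 site TGACTCA (4.46%) were in none of the windows of these genes, and the nuclear receptor core AGGTCA (14.0%) was in that of Timd4 alone. Both strands were searched, and a match of these letters is no evidence of binding.

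The receptors Axl, Mertk and Vsig4 and the adhesion molecule Vcam1 gave no signal that could be compared. Axl (probe at chromosome 7, 25466694 to 25466753, mm8, the build of the probe positions) and Mertk (chromosome 2, 128493572 to 128493631) stayed below that call on all 19 arrays, with processed signals of at most 6.29 and 10.8. The 3 probes of Vcam1 (the main one at chromosome 3, 116102302 to 116102361) stayed below it as well, and the main one reached 15.3. Vsig4 (chromosome X, 92450537 to 92450596) passed on 1 array, DBA/2 2 w replicate 2, at a scaled signal of 31.8, whereas the other replicate of that group lay at 2.66 and the rest of the samples between 2.59 and 13.0. A second probe of Spic likewise passed on 1 array alone. These genes were therefore left out of the tests, and a low signal of 1 probe does not show that a transcript is absent.

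In DBA/2 mice 5 of the 6 macrophage genes that could be tested rose from 0 w in at least 1 week, and Timd4 passed the test in none. Of the 6 tested, 4 were higher at 4 w (Marco, Cd5l, Apoe and Fcna), where 7.58% of all tested probes were higher, and 4 were higher at 8 w (Marco, Apoe, Fcna and Spic), where 10% of the probes were. At 9 w 5 were higher, all but Timd4, against 13.4% of the probes. At 2 w the group was divided: Marco and Fcna were higher and Apoe was lower, 3 of 6 genes against 15.7% of the probes changed in either direction. Over the mean of 4 w and 8 w, 4 of 6 were higher (Marco, Apoe, Fcna and Spic) against 9.80% of the probes, and the median log2 change of the 6 was 1.11, beside -0.14 for all tested probes. The step from 2 w to 4 w alone raised Marco, Apoe, Fcna and Spic, 4 of 6, against 4.79% of the probes.

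Most of these genes fell in B6 mice. At 4 w Marco, Cd5l, Apoe and Fcna were lower than at 0 w, 4 of 6 against 9.62% of the probes, and the median log2 change of the 6 was -2.34, beside -0.03 for all tested probes. At 2 w Apoe and Fcna were lower, 2 of 6 against 7.72%. At 8 w Apoe, Fcna and Timd4 were lower and Spic was higher, 4 of 6 against 21.2% changed in either direction. At 9 w only Apoe was still lower, 1 of 6 against 3.86%. Over the mean of 4 w and 8 w the 4 genes of the 4 w comparison were lower, against 7.72% of the probes.

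**Figure D1:**
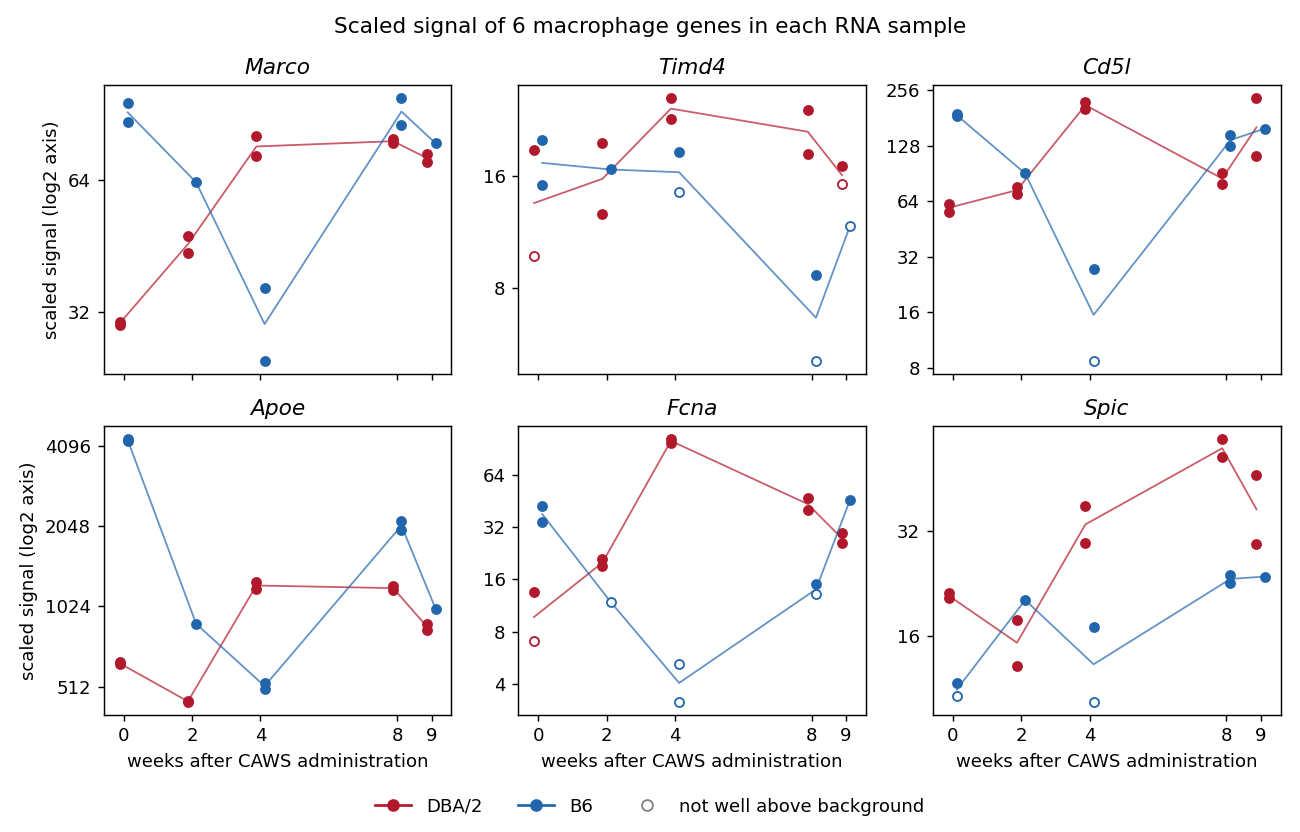
Scaled signal (log2 axis) of the 6 testable genes in every RNA sample against weeks after CAWS administration, with lines through the group means, and open points where no array of the sample was well above background. In DBA/2 mice Fcna went from 7.01 and 13.4 at 0 w to 97.9 and 103 at 4 w, and in B6 mice Marco, Cd5l, Apoe and Fcna had their lowest samples at 4 w.

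Marco, the scavenger receptor (probe at chromosome 1, 122302084 to 122302103, mm8), was bright enough to pass on all 19 arrays. Its scaled signals in DBA/2 mice were 29.8 and 30.4 at 0 w, 43.7 and 47.8 at 2 w, 80.5 and 72.5 at 4 w, 77.8 and 79.3 at 8 w, and 70.3 and 73.3 at 9 w. All 6 samples from 4 w on lay above both samples at 2 w, which in turn lay above both at 0 w. The log2 change from 0 w was 0.60 at 2 w (SE 0.16, adjusted p of 0.0326), 1.34 at 4 w (adjusted p of 0.000552), 1.38 at 8 w (adjusted p of 0.000242) and 1.25 at 9 w (adjusted p of 0.00045). The levels at 8 w, 4 w and 9 w could not be told apart, and the steps down to 2 w and to 0 w passed the test. The change at 2 w was called in none of the fits that left out 1 of the samples at 0 w or 2 w (0.54 to 0.67). Normexp background correction starts from the pixel means, takes off the background around each spot and adds an offset of 50 to every intensity. After it, the changes at 4 w and 8 w were 0.53 and 0.65 and were no longer called.

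In B6 mice the scaled signals of Marco were 87.1 and 95.9 at 0 w, 63.3 at 2 w, 24.8 and 36.4 at 4 w, 85.5 and 98.5 at 8 w, and 77.7 at 9 w. The 4 w samples lay apart below all others, and the 8 w samples overlapped with those at 0 w. The log2 change was -1.60 at 4 w (SE 0.16, adjusted p of 0.000204), and that of 8 w against 4 w was 1.61 (adjusted p of 7.8e-05). The changes from 0 w at 2 w (-0.53, adjusted p of 0.122), 8 w (0.01, adjusted p of 0.984) and 9 w (-0.23, adjusted p of 0.551) did not pass. The scaling bears on the 8 w value: the processed signals there were 128 and 141 against 63.6 and 68.7 at 0 w, and in the deposited value table without scaling the change was 1.03 and called. The change at 4 w was -0.47 after normexp correction and was not called.

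Timd4, the phosphatidylserine receptor (chromosome 11, 46687094 to 46687153), was dim, with 13 of 19 arrays well above background. In DBA/2 mice its scaled signals were 9.74 and 18.8 at 0 w, 12.6 and 19.7 at 2 w, 22.8 and 26.0 at 4 w, 18.4 and 24.2 at 8 w, and 15.2 and 17.1 at 9 w. Both samples at 4 w lay above both at 0 w, but the replicates at 0 w and 2 w were far apart. No change from 0 w passed the test, with 0.85 at 4 w (SE 0.36, adjusted p of 0.168) and 0.75 for 4 w and 8 w averaged (adjusted p of 0.13).

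The scaled signals of Timd4 in B6 mice were 20.0 and 15.1 at 0 w, 16.7 at 2 w, 18.6 and 14.5 at 4 w, 8.65 and 5.08 at 8 w, and 11.8 at 9 w. The 8 w samples were the lowest and did not overlap with the other weeks. The log2 change at 8 w was -1.39 (SE 0.36, adjusted p of 0.0239), with 1 of 2 arrays well above background there. The call was lost without B6 0 w replicate 1 (-1.19), B6 0 w replicate 2 (-1.59) or B6 8 w replicate 2 (-1.01). Marco, Cd5l and Apoe, in contrast, were higher at 8 w than at 4 w.

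Cd5l, the secreted inhibitor of macrophage apoptosis (chromosome 3, 87456828 to 87456887), was well above background on 18 of 19 arrays. Its scaled signals in DBA/2 mice were 56.0 and 62.2 at 0 w, 70.4 and 77.0 at 2 w, 223 and 203 at 4 w, 90.9 and 79.8 at 8 w, and 112 and 233 at 9 w. All samples after 0 w lay above both samples at 0 w, and the replicates at 9 w were far apart, 1 of them above both samples at 4 w. On the log2 scale it changed by 1.85 at 4 w (SE 0.46, adjusted p of 0.0262) and 1.45 at 9 w (adjusted p of 0.0434), and those at 2 w (0.32, adjusted p of 0.781) and 8 w (0.53, adjusted p of 0.48) did not pass. For 4 w and 8 w averaged it was 1.19 (adjusted p of 0.0615), and with the replicate number as a block it was called (adjusted p of 0.0418). No step between neighbours in the order 4 w, 9 w, 8 w, 2 w and 0 w passed the test. Without DBA/2 9 w replicate 2, the array with many outlier spots, the change at 9 w was 0.93 and was not called, and the change at 4 w was not called when any 1 sample at 0 w or 4 w was left out (1.78 to 1.93).

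In B6 mice the scaled signals of Cd5l were 186 and 190 at 0 w, 90.7 at 2 w, 8.74 and 27.4 at 4 w, 129 and 147 at 8 w, and 159 at 9 w. The 4 w samples were low, 1 of them not well above background, and at 9 w the signal was close to that at 0 w. The log2 change was -3.60 at 4 w (SE 0.46, adjusted p of 0.000977), 3.15 from 4 w to 8 w (adjusted p of 0.000879) and 3.36 from 4 w to 9 w (adjusted p of 0.0103). Against 0 w, the changes at 2 w (-1.05, adjusted p of 0.306), 8 w (-0.45, adjusted p of 0.553) and 9 w (-0.24, adjusted p of 0.864) did not pass.

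Fcna, the gene of ficolin-A (chromosome 2, 25447238 to 25447297), had the largest change from 0 w of the 6 genes in each week of the DBA/2 course. In DBA/2 mice its scaled signals were 13.4 and 7.01 at 0 w, 19.0 and 20.9 at 2 w, 103 and 97.9 at 4 w, 40.1 and 46.9 at 8 w, and 29.4 and 25.8 at 9 w. The groups did not overlap, and they ranked 4 w, 8 w, 9 w, 2 w and 0 w, although the steps from 8 w to 9 w (adjusted p of 0.168) and from 9 w to 2 w (adjusted p of 0.394) did not pass. On the log2 scale it changed by 3.37 at 4 w (SE 0.30, adjusted p of 9.02e-05), 2.16 at 8 w (adjusted p of 0.000725) and 1.51 at 9 w (adjusted p of 0.00507), and the fall from 4 w to 8 w passed as well (-1.21, adjusted p of 0.0391). The rise at 2 w was 1.04 (adjusted p of 0.0449) and was 0.57 and not called without DBA/2 0 w replicate 2, which was not well above background. Normexp correction gave 1.20 and 0.58 for the changes at 4 w and 8 w and 1.22 for that at 9 w, and it called none of them.

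The scaled signals of Fcna in B6 mice were 42.2 and 34.1 at 0 w, 11.8 at 2 w, 3.16 and 5.17 at 4 w, 14.95 and 13.1 at 8 w, and 46.0 at 9 w. The arrays at 2 w and 4 w were not well above background, and the sample at 9 w was the highest of the strain. Fcna was therefore at least 2.85-fold lower at 2 w (adjusted p of 0.0149) and at least 2.76-fold lower at 4 w (adjusted p of 0.000135) than at 0 w, where the dim group counts as the higher of the probe's own signal and the lowest signal well above background on the array. At 8 w the log2 change was -1.44 (SE 0.30, adjusted p of 0.00815), and it was not called without B6 0 w replicate 1 (-1.28) or B6 8 w replicate 2 (-1.34). At 9 w it was 0.28 (adjusted p of 0.73), and against 4 w the 9 w sample was at least 3.34-fold higher (adjusted p of 0.00127).

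Apoe, which encodes a protein that carries lipids in lipoproteins (chromosome 7, 18854905 to 18854964), was read by 10 spots on each array and had the smallest spread. Its scaled signals in DBA/2 mice were 621 and 631 at 0 w, 451 and 450 at 2 w, 1258 and 1194 at 4 w, 1221 and 1175 at 8 w, and 833 and 876 at 9 w. It first fell and then rose, and only the 4 w and 8 w samples overlapped with each other. The log2 change was -0.47 at 2 w (SE 0.07, adjusted p of 0.00288), 0.97 at 4 w (adjusted p of 3.35e-05), 0.94 at 8 w (adjusted p of 2.31e-05) and 0.45 at 9 w (adjusted p of 0.00186). Every step in the order 4 w and 8 w, 9 w, 0 w and 2 w passed the test, apart from that between 4 w and 8 w. With normexp correction the values at 2 w and 9 w were -0.43 and 0.26, and neither was called.

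In B6 mice the scaled signals of Apoe were 4266 and 4343 at 0 w, 880 at 2 w, 499 and 529 at 4 w, 1980 and 2136 at 8 w, and 1001 at 9 w. The samples at 0 w and 8 w were the 4 highest of the strain. The log2 change from 0 w was -2.29 at 2 w (SE 0.09, adjusted p of 2.1e-06), -3.07 at 4 w (adjusted p of 2.98e-08), -1.07 at 8 w (adjusted p of 1.4e-05) and -2.10 at 9 w (adjusted p of 2.21e-06). In the value table without scaling the change at 8 w was -0.03 and was not called. The signals at 2 w and 9 w could not be told apart (0.19, adjusted p of 0.302), and the other steps in the order of the weeks passed.

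Spic, the Ets factor of red pulp macrophages (chromosome 10, 88105107 to 88105166), was well above background on 16 of 19 arrays. In DBA/2 mice its scaled signals were 21.3 and 20.5 at 0 w, 17.9 and 13.2 at 2 w, 37.6 and 29.6 at 4 w, 51.8 and 58.5 at 8 w, and 29.4 and 46.3 at 9 w. Both samples at 8 w lay above all others, whereas the highest group means of Fcna and Cd5l were at 4 w. On the log2 scale it changed by 0.67 at 4 w (SE 0.27, adjusted p of 0.139), 1.40 at 8 w (adjusted p of 0.00468) and 0.82 at 9 w (adjusted p of 0.0493), and from 2 w to 8 w it was 1.84 (adjusted p of 0.00167). The call at 9 w was lost in most fits with 1 sample left out, and without DBA/2 9 w replicate 2 the change was 0.49. After normexp correction the change at 8 w was 0.57 and was not called, and with the replicate number as a block that at 9 w was not called (0.82, adjusted p of 0.0522).

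The scaled signals of Spic in B6 mice were 10.8 and 11.8 at 0 w, 20.3 at 2 w, 10.4 and 17.0 at 4 w, 23.9 and 22.8 at 8 w, and 23.7 at 9 w. It was thus low at 0 w, with 1 of 3 arrays well above background, in the week in which Marco and Apoe were high. The log2 change was 1.05 at 8 w (SE 0.27, adjusted p of 0.022), and those at 2 w (0.85, adjusted p of 0.141) and 9 w (1.07, adjusted p of 0.0806) did not pass. The call at 8 w was lost when any 1 of the B6 samples at 0 w or 8 w was left out (0.99 to 1.11). The arrays of B6 0 w replicate 2 gave 16.6 and 8.34 for the same RNA, and after normexp correction the change at 8 w was -0.48.

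**Figure D2:**
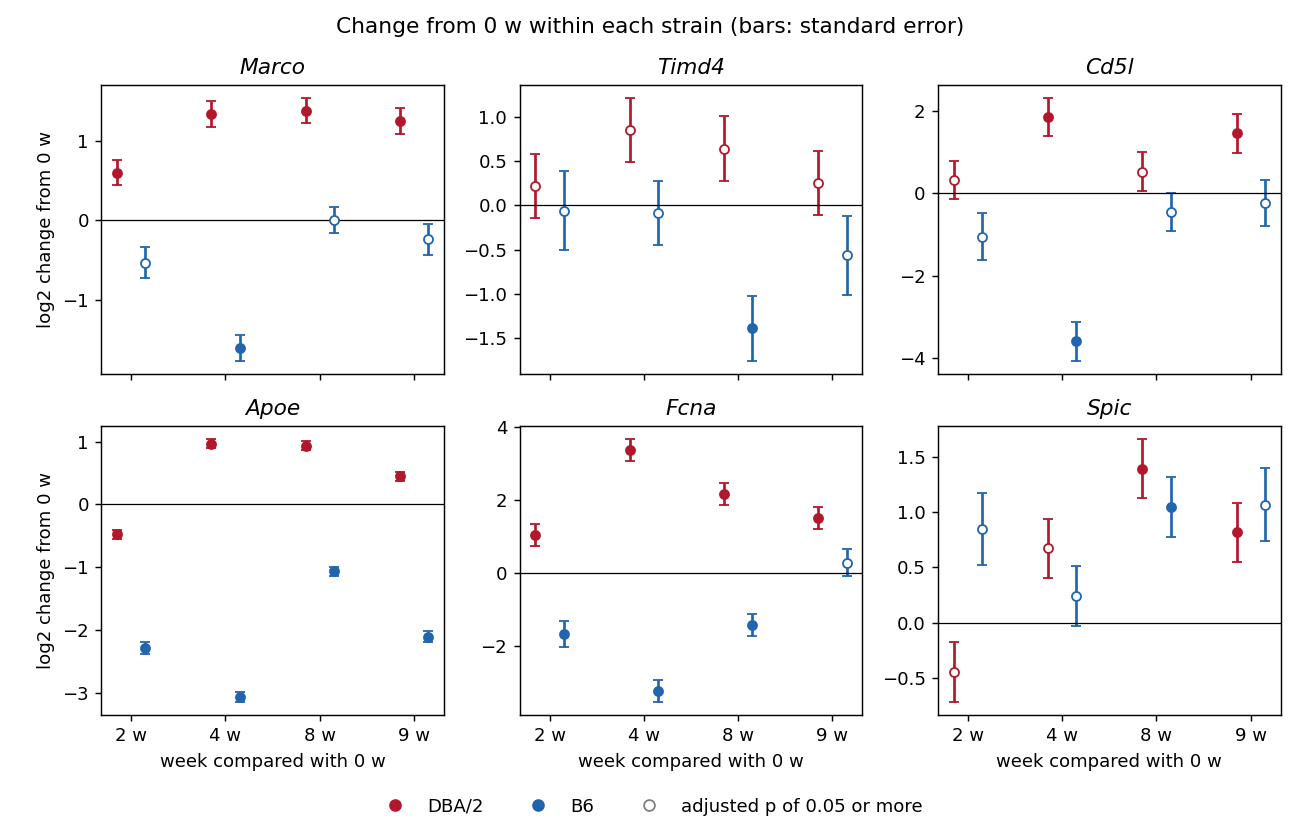
Log2 change from 0 w of the same strain (vertical axis, with the standard error) at the 4 later times for the 6 testable genes, filled where the adjusted p was under 0.05. Marco, Cd5l, Apoe and Fcna were above 0 in DBA/2 mice and below 0 in B6 mice at 4 w, with Cd5l at 1.85 and -3.60, and Spic was above 0 at 8 w in both strains, while the points of Fcna in B6 mice at 2 w and 4 w are fitted to signals below background and are no bounds.

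Within each strain, Marco, Cd5l and Apoe changed at 4 w in the same direction on each slide that holds 0 w and 4 w samples. The slides that hold DBA/2 samples of 0 w, 2 w, 4 w and 8 w gave log2 changes at 4 w of 1.43 and 1.25 for Marco, 1.99 and 1.71 for Cd5l, 1.02 and 0.92 for Apoe and 2.94 and 3.80 for Fcna. The 2 slides that hold B6 samples of 0 w and 4 w gave -1.81 and -1.34 for Marco, -3.10 and -3.04 for Apoe, and for Cd5l -2.81 on the slide whose 4 w sample was well above background. For Spic at 4 w they gave -0.05 and 1.03. DBA/2 mice at 9 w shared no slide with DBA/2 mice at 0 w, so that the 9 w change cannot be told apart from the slide.

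The B6 samples carried liver RNA in some weeks, and since the liver holds Kupffer cells, the courses were set side by side. The scaled signal of Alb, the gene of serum albumin, was 5469 to 5593 at 0 w, 72.6 at 2 w, 3.52 to 3.66 at 4 w, 2591 to 2890 at 8 w and 3.89 at 9 w. The summed scaled signal of 13 hepatocyte genes was 19417 to 19827 at 0 w and 12295 to 12612 at 8 w, against 812 at 2 w, 676 to 682 at 4 w and 501 at 9 w. Of the 13 genes, 11 were lower at 4 w than at 0 w and 11 at 9 w, against 9.62% and 3.86% of the probes. All 13 were well above background on an array at 0 w and at 8 w, and 6 and 5 of them were at 4 w and 9 w. Clec4f, a lectin of Kupffer cells, followed the same course, with scaled signals of 24.3 to 32.7 at 0 w, 3.27 at 2 w, 3.44 to 3.52 at 4 w, 19.8 to 21.6 at 8 w and 3.62 at 9 w.

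The courses met in some weeks and not in others. Apoe, like the liver genes, was high at 0 w and 8 w and lower in the other weeks. At 2 w 12 of 13 hepatocyte genes were lower than at 0 w, against 7.72% of the probes, with a median log2 change of -4.99, while Marco (-0.53) and Cd5l (-1.05) were not called. From 4 w to 8 w 5 of 6 macrophage genes rose and Timd4 fell, against 29.2% of the probes changed in either direction. Marco, Cd5l, Apoe and Fcna were higher at 9 w than at 4 w, 4 of 6 against 4.65% of the probes, while 1 of 13 hepatocyte genes, Trf, was higher, at 60.1 against 24.8 to 26.8. At 9 w Alb and Clec4f were not well above background, and Cd5l was at 159, Fcna at 46.0 and Marco at 77.7. These values rest on the 1 B6 sample of 9 w. The part that liver RNA has in the falls of Marco, Cd5l and Fcna at 4 w and in the rises at 8 w was not tested.

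**Figure D3:**
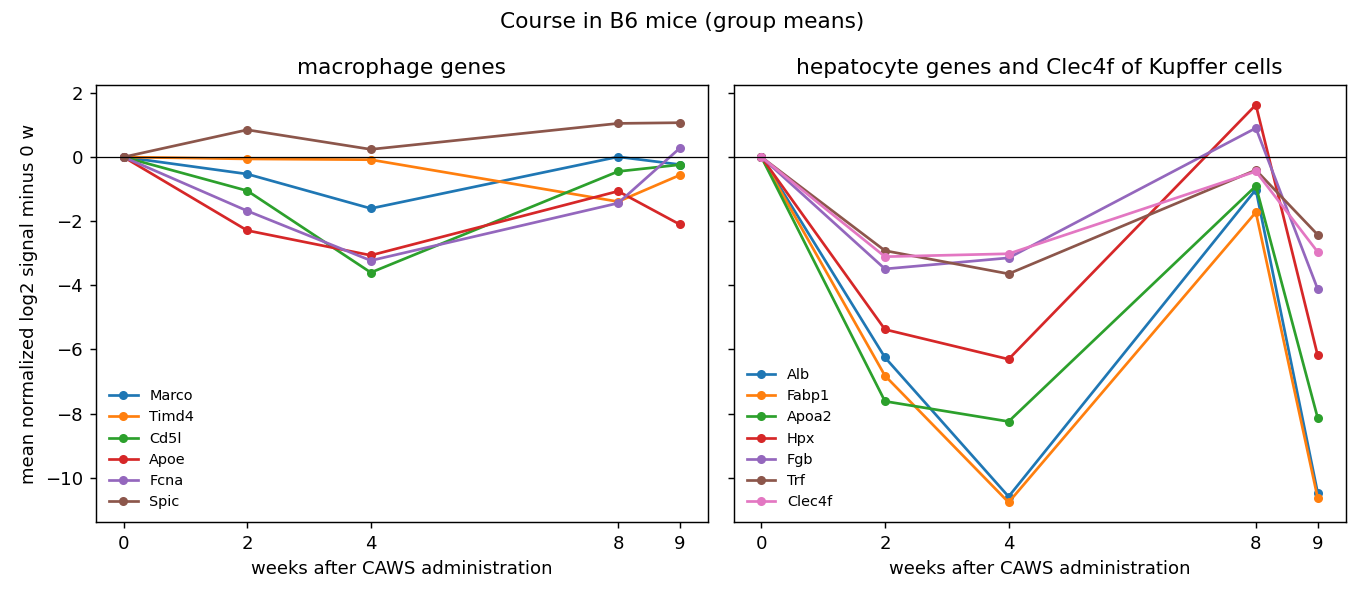
Mean normalized log2 signal of B6 mice minus that at 0 w (vertical axis) against weeks after CAWS administration, for the 6 macrophage genes (left) and for hepatocyte genes and Clec4f (right), where fitted falls below background are not bounds. At 9 w Alb was at least 372-fold lower and Cd5l changed by -0.24, and Spic lay above its 0 w value in all later weeks.

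No DBA/2 sample reached the summed liver signal of B6 mice at 0 w or 8 w. The summed scaled signal of the 13 hepatocyte genes was 545 to 902 at 0 w, 598 to 941 at 4 w and 465 to 815 at 8 w. Apoa1, Apoa2, Cps1, Cyp2e1, Hpx, Ttr and Clec4f were well above background on no DBA/2 array. Alb was at 25.0 to 44.7 at 0 w and at 1.80 to 2.71 at 8 w, where Marco and Apoe were high. Of the 13 genes, 2 were higher and 1 lower with 4 w and 8 w averaged, shares near the 9.80% and 13.0% of all probes. Those higher were Trf (1.61, adjusted p of 2.33e-06), the gene of transferrin, and Fabp1, which encodes a fatty acid binding protein of the liver. Fabp1 was at 4.29 to 5.43 at 0 w, below background, at 19.9 to 26.5 at 2 w, at 63.5 to 65.7 at 4 w and at 1.66 to 2.21 at 8 w, a rise to 4 w of at least 5.02-fold (adjusted p of 3.05e-06) in the week in which the group means of Fcna and Cd5l were highest. The part of liver RNA in the changes of DBA/2 mice was not tested.

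The strains differed in the change from 0 w. Averaged over 4 w and 8 w, it was larger in DBA/2 mice for Marco by 2.16 (SE 0.20, adjusted p of 0.000148), for Cd5l by 3.22 (SE 0.57, adjusted p of 0.00571), for Apoe by 3.02 (SE 0.09, adjusted p of 2.05e-07) and for Fcna by 5.10 (SE 0.37, adjusted p of 4.26e-05), 4 of 6 genes against 6.48% of the probes. The value of Fcna is fitted to B6 signals at 4 w that were below background, and with that group at the level of the background call it was 4.22. For Timd4 (1.48, adjusted p of 0.0591) and Spic (0.39, adjusted p of 0.541) it did not pass. Both strains enter these values: Marco, Apoe and Fcna rose over these weeks in DBA/2 mice, where Cd5l gave 1.19 (adjusted p of 0.0615), and all 4 fell in B6 mice, and the B6 samples at 0 w and 8 w are those with high liver genes. With normexp correction the difference was 1.02 for Marco and 1.70 for Fcna and was not called for either, whereas it stayed called for Cd5l and Apoe.

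Set against each other week by week, the strains changed places. From 0 w to 8 w no slide held both strains, so that the strain and the slide cannot be told apart in these weeks. The B6 samples also carried liver RNA at 0 w and 8 w. Their summed hepatocyte signal was 19417 to 19827 and 12295 to 12612, against 545 to 902 and 465 to 815 in DBA/2 mice. The part of liver RNA in the strain differences was not tested. At 0 w Marco, Cd5l, Apoe and Fcna were lower and Spic was higher in DBA/2 mice, 5 of 6 genes against 32.6% of the probes, with a log2 difference of -1.60 for Marco (adjusted p of 6.46e-05) and -2.78 for Apoe (adjusted p of 1.9e-08). At 2 w Apoe alone was lower (-0.97, adjusted p of 4.99e-05), 1 of 6 against 12.5%. At 4 w the 5 genes other than Timd4 were higher in DBA/2 mice, against 19.0% of the probes, by 1.35 for Marco, 3.78 for Cd5l, 1.25 for Apoe and 1.32 for Spic, and Fcna was at least 7.28-fold higher (adjusted p of 3.24e-06). At 8 w Timd4 (1.67, adjusted p of 0.00796), Fcna (1.63, adjusted p of 0.00321) and Spic (1.24, adjusted p of 0.00792) were higher and Apoe (-0.78, adjusted p of 5.98e-05) was lower, 4 of 6 against 25.4%. At 9 w limma called 0 of 6 genes, 1 was under an unadjusted p of 0.05, and 13.3% of the probes were called.

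**Figure D4:**
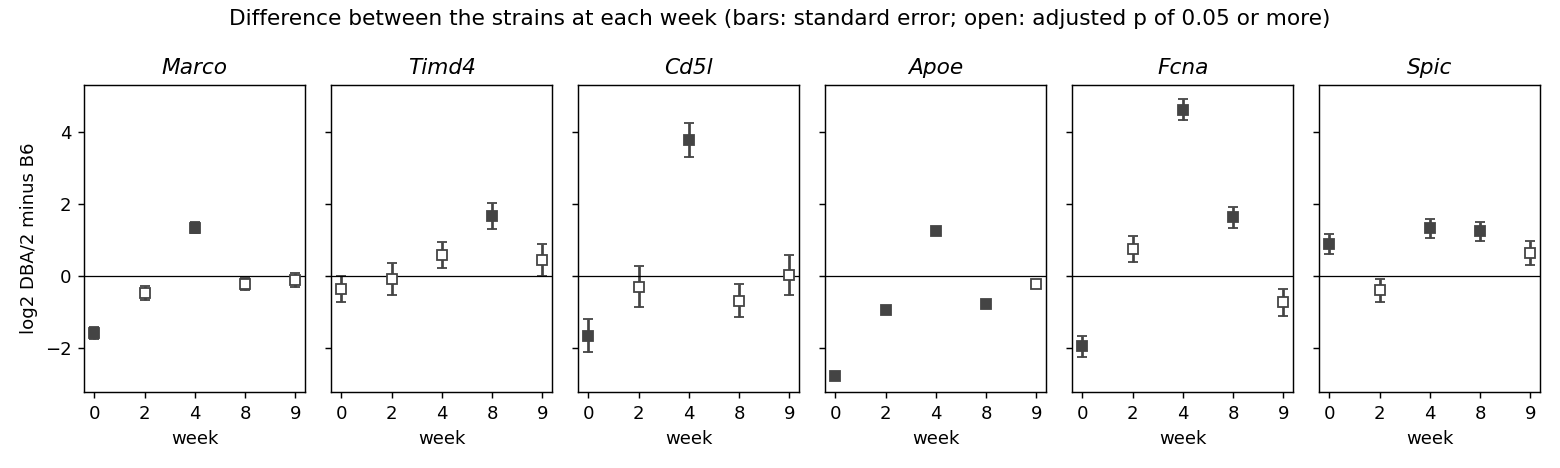
Log2 signal of DBA/2 mice minus that of B6 mice (vertical axis, with the standard error) at each week, filled where the adjusted p was under 0.05. Marco, Cd5l, Apoe and Fcna lay below 0 at 0 w and above 0 at 4 w, and Spic was above 0 at 0 w, 4 w and 8 w.

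Other genes of macrophages were read from lists. Of 8 further markers of splenic macrophages, 6 could be tested, and 5 of them rose in DBA/2 mice over the mean of 4 w and 8 w, with a median log2 change of 1.66, where 9.80% of all probes were higher and 13.0% lower. Hmox1, which breaks down heme, rose by 1.63, Slc40a1, the iron exporter ferroportin, by 1.69, and Adgre1, the F4/80 antigen, by 1.41, and Cd163, the receptor for hemoglobin bound to haptoglobin, was at least 1.30-fold higher. Only the groups DBA/2 4 w, DBA/2 8 w and B6 8 w had Cd163 well above background, so its call rests on a 0 w group without signal. Cd209b, also tested, was well above background in these groups and in DBA/2 2 w, but in neither strain at 0 w. Both genes thus entered the tests in part through the groups compared with 0 w. Both count in the median, and Cd163 counts among the 5, so these values depend in part on which probes were tested. Siglec1, the gene of sialoadhesin, was well above background on no array. In B6 mice at 4 w Adgre1 was lower (-0.96, adjusted p of 0.000157) and Slc40a1 was higher (0.68, adjusted p of 0.0116). With Siglec1, Vsig4, Vcam1, Axl and Mertk not measurable, the samples showed part of the defining markers of these macrophages, and the genes are named here as a list and not as a cell type.

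Of 15 general macrophage genes, 12 could be tested, and 9 rose and none fell in DBA/2 mice over the mean of 4 w and 8 w (median log2 change 1.57), against the same 9.80% of probes higher. The 9 include Pltp, the gene of a phospholipid transfer protein, which was well above background only in the groups averaged here. Its place among the tested genes thus comes from the groups in which it was called higher. Pltp is counted again in the liver X receptor list below. Fcgr1, a high-affinity receptor for antibodies, rose by 3.16, and the complement genes C1qa and C1qc by 2.13 and 2.11, and the scavenger receptor Msr1 was at least 2.59-fold higher. In B6 mice 6 of 12 were lower at 4 w, against 9.62% of the probes, and none at 9 w, against 3.86%. C1qc was at least 12.5-fold lower at 4 w (adjusted p of 1.21e-06) and changed by -0.26 at 9 w (adjusted p of 0.686), as Cd5l and Fcna also were low at 4 w and not at 9 w. Of 7 genes of blood monocytes, 5 were higher in the same DBA/2 comparison (9.80% of the probes), with Fn1, the gene of fibronectin, at 2.06, the chemokine receptor gene Ccr2 at 1.64, Fcgr4 at 1.35 and Ly6c1 at 1.17. All 6 testable neutrophil genes rose in both strains over the same weeks, with medians of 2.34 in DBA/2 and 2.22 in B6 mice, where 9.80% and 7.27% of the probes were higher. The part of monocytes and neutrophils in the changes of the macrophage genes was not tested.

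Among 7 markers of Kupffer cells, 3 rose and 1 fell in DBA/2 mice over the mean of 4 w and 8 w (9.80% and 13.0% of the probes), with Hpgd, which degrades prostaglandins, at least 1.91-fold higher and Id1, an inhibitor of differentiation factors, at 1.39, while Clec4f stayed below background. Scaled signals of Id3 were 118 to 119 at 0 w, 61.7 to 67.3 at 4 w and 81.2 to 83.3 at 8 w. Those of Clec1b were 10039 to 11227, 14702 to 15760 and 14584 to 14826. In B6 mice Clec1b was at 6017 at 2 w and 21863 to 22602 at 4 w, where Clec4f was not well above background. The summed scaled signal of 5 platelet genes was 43345 and 147794 to 160908 in these B6 groups. Clec1b thus did not follow Clec4f, and it counts as a Kupffer gene here by the list alone. Folr2 passed the background call on 1 DBA/2 array each at 4 w and 8 w, and on no other array. Of 14 genes of the liver X receptor pathway, which controls Apoe in macrophages, 4 were higher and 4 lower in the same comparison, against 9.80% and 13.0% of the probes, with a median of 0.12. Pltp, a phospholipid transfer protein, was at least 1.11-fold higher, Apoc2 rose by 0.74, and Abca1, the cholesterol exporter, fell by 0.62. No group other than DBA/2 4 w and DBA/2 8 w had Pltp well above background. Pltp thus entered the tests through the very groups in which it was called higher. In B6 mice at 4 w 8 of the 14 were lower and none higher, against 9.62% of the probes lower. Of 11 other genes for the uptake of dying cells, 1 was higher and 2 (Elmo1 and Stab2) were lower, shares near the 9.80% and 13.0% of all probes, and the 1 that rose, the lipid receptor gene Cd300lf, did so by 1.67.

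Likeness of pattern was measured over the 10 DBA/2 samples against 17070 probes, as a description. Nearest to Marco were Apobr, the receptor for apolipoprotein B48, Metrnl and Cfb, the gene of complement factor B, with Pearson's r of 0.996, 0.994 and 0.990. Nearest to Apoe were Rin2 (0.992), Stard3 (0.986) and Retnla (0.984), and nearest to Fcna were Xcl1 (0.975), Trf (0.966) and Trib1 (0.966). For Spic they were Etfb (0.981), Tmem51 (0.966) and LOC385319 (0.962), for Cd5l Dctn1 (0.938), Tbx21 (0.922) and a transcript without a gene name (0.916), and for Timd4 Rcn3 (0.940), Snrk (0.934) and Fam20a (0.924). Among the members, r over the same 10 samples ran from 0.40 for Timd4 with Spic to 0.88 for Apoe with Spic. The samples come from the same 5 times, and the nearest genes were chosen for their r.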

How the data were processed

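RNA of blood leukocytes was hybridized to 1-colour Agilent whole mouse genome arrays, and the deposited files are scanner output of Feature Extraction 9.5.3.1, in which the authors' software gives the processed intensity of each spot after background subtraction. The deposited value table, also of intensities, served as an alternative. Outlier spots were left out and spots of a probe averaged. Log2 processed intensities were centred on the 75th percentile of 11533 probes well above background on all arrays. The 22936 of 41174 probes that passed the background call in 2 or more of 18 samples were fitted in limma 3.58.1 (R 4.3.3) with 1 mean for each of the 10 groups (8 residual degrees of freedom, prior 1.37), and calls were made at a Benjamini-Hochberg adjusted p under 0.05. The fit was tested on simulated data. Tables and plots were made in Python 3.11.15 with pandas 2.3.3, numpy 2.4.6 and matplotlib 3.10.9.

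The main probe of a gene was that with the highest mean signal. The members and lists were chosen with earlier results of these data known. At most 4 genes of a list were named, those past the threshold with the largest change in DBA/2 mice over 4 w and 8 w, while hepatocyte and Kupffer cell genes could all be given. Slc40a1, Adgre1 and C1qc in B6 mice were given after their values were seen. The alternatives were normexp correction (offset 50), other scalings, the value table, a floor of 10, no filter or a filter at 9 samples, outlier spots kept, the mean of the detected probes, blocks for replicate number and slide, each strain alone, single arrays of the sample with a repeat, and each sample left out. The correlation of the deviations of same-numbered samples was 0.33 to 0.41 among DBA/2 mice at 0 w to 8 w, which shared a slide for each number, 0.19 to 0.29 among the B6 groups with both numbers, and 0.017 to 0.35 for the other pairs of groups, so the numbers go with the slide and the day of the scan. The fit had no replicate block, and the blocked values are given where a call differed. The list of ligands and receptors of the members, with a result for 1 of its genes, is not reported here.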

Additional observations from a re-analysis of the deposited data

Results flagged for a closer look

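The change from 0 w over the mean of 4 w and 8 w differed between the strains for 4 genes by the test of the difference itself. On the log2 scale it was larger in DBA/2 than in B6 mice by 2.16 for Marco, 3.22 for Cd5l, 3.02 for Apoe and 5.10 for Fcna. The value of Fcna is fitted to B6 signals at 4 w below background, and it was 4.22 with that group at the level of the background call. In the fits that left out 1 sample, these differences were 2.02 to 2.30 for Marco, 2.81 to 3.63 for Cd5l, 2.99 to 3.05 for Apoe and 4.63 to 5.57 for Fcna. With normexp correction the difference was not called for Marco or Fcna. The B6 samples at 0 w and 8 w that enter these values are those with high liver genes, and the part of liver RNA was not tested.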

How the results depend on the processing

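The number of macrophage genes called, out of 6, moved most with normexp background correction: over the mean of 4 w and 8 w it was 2 in DBA/2 mice, 2 in B6 mice and 2 for the strain difference, in DBA/2 mice 0, 2, 1 and 2 in the 4 later weeks in turn, and in B6 mice 1, 2 and 1 in the first 3 of these. Normexp called 583, 179 and 91 of all probes in the first 3 comparisons, against 5231, 3438 and 3021 as reported. All counts of probes given below are for these comparisons over the mean of 4 w and 8 w. None was made for a single week under an alternative setting. In the value table without scaling, 1 gene was called at 2 w and 2 at 9 w in DBA/2 mice, and 2 each at 8 w and 9 w among B6 mice, with 4756, 9374 and 9195 probes. With no filter on dim probes the DBA/2 counts were 0 at 2 w and 3 at 9 w and the B6 count at 8 w was 2. The probes called there were 3055, 1627 and 1259, out of 41171, 41174 and 41171 tested. With B6 mice alone they were 1 at 2 w, 2 at 8 w and 2 over the mean of 4 w and 8 w, with 2126 probes. The slide as a fixed block left 1 at 8 w in B6 mice (945 probes in B6 mice and 1437 for the strain difference), and the second array of B6 0 w replicate 2 gave 2 at 9 w. Leaving out 1 sample at a time, the counts ran in DBA/2 mice from 1 to 3 at 2 w, 3 to 4 at 4 w, 4 to 4 at 8 w, 3 to 5 at 9 w and 3 to 5 over the mean, in B6 mice from 1 to 3, 4 to 4, 1 to 4, 1 to 1 and 2 to 5, and from 4 to 5 for the strain difference. Without DBA/2 0 w replicate 1 or 2, 3093 and 3063 probes were called in DBA/2 mice and 1831 and 1842 for the strain difference. The causes were not tested.

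The replicate block, which is also a block for the day of the scan, called 6553, 4754 and 4184 probes. Of the macrophage genes it called Cd5l in DBA/2 mice over the mean of 4 w and 8 w (1.19), for a count of 5, and it did not call Spic in DBA/2 mice at 9 w (0.82), for a count of 4. It changed no other call of these genes against 0 w or in the strain difference.

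None of the log2 changes that turned sign was called as reported except that of Spic in B6 mice at 8 w. In DBA/2 mice Timd4 at 2 w was -0.041 in the value table, -0.26 without DBA/2 0 w replicate 1 and -0.10 without DBA/2 2 w replicate 2 (up to 0.69 over the samples left out), and at 9 w -0.18 in the value table and -0.22 without DBA/2 0 w replicate 1 (up to 0.73). In B6 mice Timd4 at 2 w was 0.14 without B6 0 w replicate 1, and at 4 w 0.040 with normexp, 0.023 with the percentile over all probes, 0.049 and 0.013 with the slide as a fixed and a random block, 0.12 without B6 0 w replicate 1 and 0.10 without B6 4 w replicate 2 (down to -0.29). Spic in B6 mice was -0.20 over the mean, -0.48 at 8 w and -0.24 at 9 w with normexp, and at 4 w -0.00829 with the first array of B6 0 w replicate 2 alone and -0.11 without B6 4 w replicate 2 (up to 0.59), and its strain difference was -0.21 in the value table. Marco in B6 mice at 8 w was -0.39 with normexp, -0.38 and -0.067 with the slide as a fixed and a random block, -0.024 with the first array alone, -0.06 without B6 0 w replicate 1 and -0.10 without B6 8 w replicate 2 (up to 0.11), and at 9 w 0.22 in the value table. Cd5l in B6 mice was 0.57 at 8 w and 0.22 at 9 w in the value table, and Fcna at 9 w was -0.20 with normexp and -0.54 with the slide as a fixed block. Signals below background on part of the arrays limit Timd4, Spic and Fcna.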
